A study of Homo sapiens with 24 samples.

Results

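This comparison asked what the oestrogen receptor (ER) degrader fulvestrant added to CDK4/6 inhibition in the ER-negative, mesenchymal breast cancer line MDA-MB-231. It set the 3 libraries of cells given abemaciclib at 500 nM together with fulvestrant at 5 nM for 5 days against the 3 libraries of cells given abemaciclib alone at the same dose and for the same time. These 6 libraries were chosen by their cell line and treatment labels out of 24 in the series, which holds 8 groups of 3. The other MDA-MB-231 groups used here received DMSO or fulvestrant alone at 5 nM for 5 days, and MDA-MB-453, an epithelial ER-negative line, received the same 4 treatments. All of these groups are labelled wild type, with no engineered allele. Both are established lines, so the libraries of a group are samples of one line grown apart, and the p-values measure the spread between such samples.

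CDK4 and CDK6 are the G1 kinases that, with D-type cyclins, phosphorylate the retinoblastoma protein Rb. When they are blocked, Rb stays bound to E2F factors and the genes for DNA replication and mitosis are repressed. Fulvestrant binds ER and leads to its degradation, and it is used beside CDK4/6 inhibitors in hormone receptor-positive breast cancer. It is also known to act as an agonist of the membrane receptor GPER1.

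The libraries matched their labelled line. Vimentin, CD44 and caveolin 1 were present in all of them. None of the 10 markers of MDA-MB-231 was at 0 throughout either group, and 9 were expressed enough to be tested. Their summed level ran from 4367 to 4613 counts per 1000000 (CPM) with abemaciclib and from 4195 to 4320 CPM with the combination. It was at most 2.783 CPM in the MDA-MB-453 libraries. The sum was over all 10 markers. Of the 12 markers of MDA-MB-453, PIP, TFAP2B and MUCL1 were at 0 in all 6 libraries, and the summed level of the list was 169.5 to 178.9 CPM with abemaciclib and 146 to 176.5 CPM with the combination. ESR1, the gene of the receptor that fulvestrant degrades, had 0 counts in 4 of the 6 libraries, 5 counts in abemaciclib replicate 3 and 3 counts in combination replicate 3. At these totals a count of 0 in a library allows up to 0.721 to 0.912 CPM, a limit that covers counting error only. GPER1 was low, at 5.47 to 11.47 CPM with abemaciclib and 4.76 to 13.77 CPM with the combination.

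Depth and composition differed between the groups. Totals were 3291153 to 3649306 counts with abemaciclib and 3710834 to 4158762 with the combination, and these ranges did not overlap. Mitochondrially encoded genes took 12.2% ± 1.04 of the counts with abemaciclib and 13.7% ± 0.318 with the combination (SD, n = 3), a difference of 1.51 percentage points with an exact 2-sided permutation p of 0.10, the smallest that 3 against 3 libraries can give. Without the 2 mitochondrial ribosomal RNA genes the difference was 0.356 points, with an exact permutation p of 0.80. Whether depth or composition had a part in the results was not tested beyond the values given beside them.

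When fulvestrant was added to abemaciclib, edgeR called few genes. Of 11314 genes tested, 3 had an adjusted p below 0.05 in edgeR's quasi-likelihood test with Benjamini-Hochberg adjustment, which is 0.0265% of them. CCN2 and RRM2 fell and CHD1 rose, each by less than 2-fold. CCN2 encodes a secreted matricellular protein and is a widely used target gene of YAP and TEAD. RRM2 encodes the small subunit of ribonucleotide reductase, the enzyme that supplies deoxynucleotides for DNA synthesis, and is an E2F target. CHD1 encodes a chromodomain helicase that remodels nucleosomes at transcribed genes. As a scale, abemaciclib against DMSO in the same fit called 3815 genes, 33.7% of those tested.

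The promoters of these 3 genes are shown because they are the called genes of the comparison, with matches to short motifs in capitals. They run from 250 bases before to 50 bases after the RefSeq start site, 5′ to 3′ on the strand of the gene, in build GRCh38.p14. CCN2 lies on chromosome 6 on the minus strand, with its promoter at chr6:131951323-131951622. RRM2 lies on chromosome 2 on the plus strand, and the first of its 2 RefSeq promoters is shown, chr2:10122489-10122788. CHD1 lies on chromosome 5 on the minus strand, with its promoter at chr5:98928958-98929257.
CCN2: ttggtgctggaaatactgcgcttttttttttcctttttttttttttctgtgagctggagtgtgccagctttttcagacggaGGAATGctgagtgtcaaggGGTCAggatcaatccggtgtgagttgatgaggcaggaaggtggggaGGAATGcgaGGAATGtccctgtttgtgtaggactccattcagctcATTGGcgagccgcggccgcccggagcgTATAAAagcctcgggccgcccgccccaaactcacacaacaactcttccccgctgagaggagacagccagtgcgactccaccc
RRM2: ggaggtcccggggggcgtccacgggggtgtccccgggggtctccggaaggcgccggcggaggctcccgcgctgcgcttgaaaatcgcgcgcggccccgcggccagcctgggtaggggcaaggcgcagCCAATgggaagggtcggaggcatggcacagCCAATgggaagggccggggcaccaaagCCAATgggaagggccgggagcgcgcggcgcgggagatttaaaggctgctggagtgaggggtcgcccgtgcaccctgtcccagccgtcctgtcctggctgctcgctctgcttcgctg
CHD1: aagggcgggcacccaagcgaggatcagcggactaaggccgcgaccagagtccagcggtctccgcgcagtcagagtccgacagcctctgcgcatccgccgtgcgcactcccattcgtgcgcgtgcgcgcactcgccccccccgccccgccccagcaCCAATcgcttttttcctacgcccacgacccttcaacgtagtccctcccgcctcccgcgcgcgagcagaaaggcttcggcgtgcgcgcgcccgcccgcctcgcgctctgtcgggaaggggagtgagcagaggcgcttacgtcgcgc

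The motifs were searched on both strands in all 35116 RefSeq promoters of this length. The TEAD motif GGAATG was found 3 times in the CCN2 promoter, at positions -169, -104 and -95 from the start site, and in 14% of all promoters. The same promoter held 1 TATA motif, TATAAA, at -32, which 11.5% of promoters held. It also held 1 oestrogen half-site, GGTCA, which 37.4% of promoters held. The CCAAT box occurred 3 times in the RRM2 promoter, at -123, -93 and -66, and once each in the CCN2 and CHD1 promoters, and 34.6% of promoters held it. The full oestrogen response element GGTCANNNTGACC, the E2F forms TTTGGCGC and TTTCCCGC and the AP-1 motif TGANTCA had no match in the 3 windows. They occurred in 0.057%, 0.652%, 1.63% and 7.71% of all promoters. A match is a description of letters and not a bound site.

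CCN2 stood at 164.3, 132.4 and 161.4 CPM in the 3 abemaciclib libraries. It stood at 105.8, 93.3 and 89.5 CPM in the 3 combination libraries, all below the lowest abemaciclib library. The combination level was 0.63 of the abemaciclib level (95% interval 0.54 to 0.73), a log2 fold change of -0.67 (SE 0.105, n = 3 per group, edgeR adjusted p = 0.00138). DMSO libraries held 439.2 to 484.8 CPM and libraries with fulvestrant alone 483 to 551.9 CPM, so that the order of the means was fulvestrant, DMSO, abemaciclib, combination. Of these neighbours, fulvestrant and DMSO were not called apart (edgeR adjusted p = 0.742). The gene spans chr6:131948176-131951372, and its exons overlap those of LINC01013 on the other strand. The strand setting of the counting is not stated, so reads of the 2 genes cannot be told apart.

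RRM2 was measured at 145.1, 130.2 and 138.9 CPM with abemaciclib and at 90.2, 89.3 and 96.8 CPM with the combination. The groups did not overlap, and the spread within each was small, at an SD of 7.46 CPM around 138.1 and of 4.09 CPM around 92.1. The combination level was 0.67 of that with abemaciclib (95% interval 0.58 to 0.77), and the log2 fold change was -0.58 (SE 0.105, n = 3 per group, edgeR adjusted p = 0.00721). Abemaciclib alone had brought the gene down from 462.9 ± 22 CPM under DMSO (SD, n = 3), while fulvestrant alone gave 469.9 ± 56.5 CPM. RRM2 spans chr2:10120698-10211725.

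CHD1 moved the other way. It stood at 51.9, 50.9 and 66.2 CPM with abemaciclib and at 87.5, 98.1 and 96.8 CPM with the combination, again without overlap. The level was 1.67 times as high with the combination (95% interval 1.38 to 2.01), a log2 fold change of 0.74 (SE 0.134, n = 3 per group, edgeR adjusted p = 0.00721). DMSO libraries held 116.7 to 125.4 CPM, above every abemaciclib and combination library. Libraries with fulvestrant alone held 84.1 to 113.9 CPM, a range that overlapped the combination. Of the abemaciclib libraries, replicate 3 was the closest to the combination, for this gene and across all genes. CHD1 spans chr5:98853985-98929007.

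**Figure D1:**
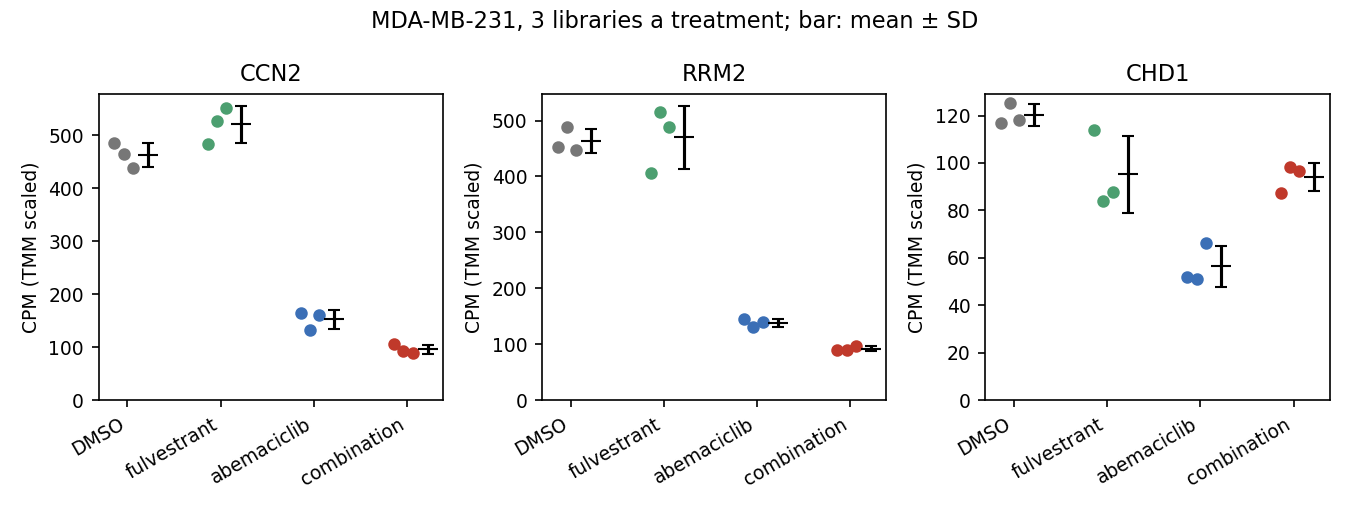
Levels of CCN2, RRM2 and CHD1 in CPM in the MDA-MB-231 libraries of each treatment (points), with the mean ± SD of 3 libraries beside them. CCN2 and RRM2 sit lowest in the combination, and CHD1 sits lowest with abemaciclib alone.

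These calls were near the limit of what 3 libraries a group resolved. Leaving out abemaciclib replicate 1 left 0 called genes, at 789 genes with an unadjusted p below 0.05, while leaving out abemaciclib replicate 3 gave 96, of which 57 were higher and 39 lower. With each of the 6 libraries removed in turn, the log2 fold change of CCN2 stayed between -0.76 and -0.61, that of RRM2 between -0.63 and -0.55, and that of CHD1 between 0.67 and 0.87. A test against a minimum change of 1.2-fold called none of the 3, and 424 genes had an unadjusted p below 0.05 in it. Just outside the threshold, at an edgeR adjusted p of 0.05001, stood GOLGA4 (log2 fold change 0.63), AKAP12 (0.50), UCP2 (-0.65) and PTTG1 (-0.42).

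More genes had small p-values than uniform p-values would give. An unadjusted p below 0.05 was given to 1148 genes, 10.1% of those tested, against 566 under uniformity, and 501 of them were higher and 647 lower with the combination. The 3 libraries of each group did not overlap for 1795 genes (15.9%), 795 higher (7.03%) and 1000 lower (8.84%). For the 8072 genes averaging at least 10 CPM, the median half-width of the 95% interval was 0.353 on the log2 scale. The interval lay within 1.5-fold in either direction for 4925 of them (61%) and within 2-fold for 7695 (95.3%). Above 100 CPM, 1689 of 1690 genes had an interval within 2-fold.

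DESeq2, the tool of the study, called 55 genes, 18 higher and 37 lower, among them the 3 that edgeR called. It gave an adjusted p to 2759 of the 11314 genes, of which the 55 are 1.99%, because its filter on mean counts removed the rest from the adjustment. Without that filter it called 15. The groups did not overlap for 54 of the 55 genes. All 55 had the same direction in edgeR, with absolute log2 fold changes of 0.26 to 0.74 there, and the 52 that edgeR did not call had edgeR adjusted p-values from 0.05001 to 0.236. The genes named from this set in the next paragraphs were chosen after their values were seen, except KRT18.

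The E2F and mitosis lists together held 162 of the 11314 tested genes. Their members made up 9 of the 37 genes that DESeq2 called lower and 0 of the 18 it called higher. DESeq2 could call only the 2759 genes it gave an adjusted p, and the share of these lists among those was not counted. PTTG1, which encodes securin, the inhibitor of separase, stood at 239.7, 240.4 and 263.1 CPM with abemaciclib and at 189.3, 182.2 and 183.2 CPM with the combination. CCNB1, the mitotic cyclin B1, stood at 101.2, 82.7 and 88.1 CPM and then at 69.9, 63.3 and 59.2 CPM. AURKB, the kinase of the chromosomal passenger complex, stood at 102.4, 90.6 and 83.1 CPM and then at 64.8, 63.6 and 70.8 CPM. All 3 had combination libraries below every abemaciclib library, with edgeR adjusted p-values of 0.05001, 0.102 and 0.105. NCAPD2, CDCA3, BIRC5, LMNB1 and MYBL2 were lower by 0.39 to 0.58 on the log2 scale, with edgeR adjusted p-values of 0.116 to 0.152. The histone genes H1-10, H2AZ1 and H2AZ2 were in the lower set as well, at log2 fold changes of -0.51, -0.33 and -0.30.

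Other genes of the lower set are given as examples. UCP2, a mitochondrial carrier, stood at 77.1, 75.7 and 68.9 CPM with abemaciclib and at 46.7, 46.4 and 47.8 CPM with the combination. GPD2, the mitochondrial glycerol-3-phosphate dehydrogenase, stood at 64.2, 50.0 and 63.2 CPM and then at 45.6, 32.2 and 39.2 CPM. IGFBP4, which binds insulin-like growth factors and is also an oestrogen response gene, stood at 1312, 1234 and 1154 CPM and then at 974.2, 912.7 and 1002 CPM. None of these 3 overlapped between the groups, and their edgeR adjusted p-values were 0.05001, 0.105 and 0.116. GAPDH, the glycolytic enzyme often taken as constant, had a log2 fold change of -0.32 (edgeR adjusted p = 0.109).

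The higher set of 18 had 1 member on any of the 28 lists, SNHG16, a noncoding host gene of small nucleolar RNAs. The lower set of 37 had 17, where 927 of the 11314 tested genes were on a list. The share on a list among the 2759 genes that DESeq2 gave an adjusted p was not counted. SBDS, which acts in the maturation of the large ribosomal subunit, stood at 103.8, 98.8 and 112.7 CPM with abemaciclib and at 140.7, 159.5 and 159.1 CPM with the combination. AHNAK2, a giant scaffold protein, stood at 169.8, 182.4 and 175.6 CPM and then at 243.8, 279.5 and 240.5 CPM. AKAP12, an anchoring protein of protein kinase A, stood at 362.5, 419.7 and 419.6 CPM and then at 491.2, 662 and 544.7 CPM. The combination libraries of these 3 genes stood above all of the abemaciclib libraries. EIF5B, RPF2, RTF1 and PRPF38B, which act in translation initiation, ribosome assembly, transcription elongation and splicing, had log2 fold changes of 0.33, 0.44, 0.43 and 0.49.

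Transcript length moved with these sets. Of the 18 genes called higher by DESeq2, 14 were in the longest tertile of transcripts and 2 in the shortest. Of the 37 called lower, 3 were in the longest tertile and 21 in the shortest. The tertiles were cut over all tested genes with a length, not over the 2759 that DESeq2 gave an adjusted p. Across all genes with a length, 95.7% of those tested, the median log2 fold change was -0.07 in the shortest tertile, -0.02 in the middle and 0.05 in the longest. By GC content the medians were 0.05 in the lowest tertile, -0.01 in the middle and -0.09 in the highest. The mean log2 CPM of the longest tertile minus that of the shortest was -0.49, -0.50 and -0.39 in the abemaciclib libraries. In the combination libraries it was -0.39, -0.29 and -0.37, a mean difference between the groups of 0.11 with an exact permutation p of 0.10. With offsets for length and GC in the model, edgeR called 10 genes, including CCN2, RRM2 and CHD1 at log2 fold changes of -0.62, -0.61 and 0.64.

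**Figure D2:**
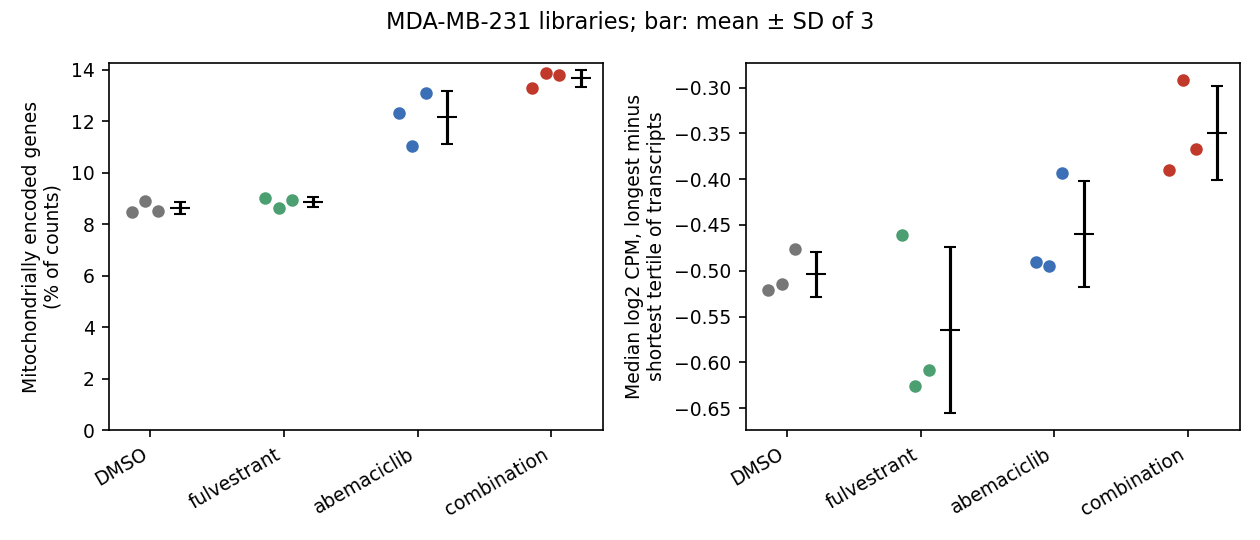
Share of counts from mitochondrially encoded genes (left, % from 0) in each MDA-MB-231 library, with the mean ± SD of 3 libraries. The right panel gives the mean log2 CPM of the longest tertile of transcripts minus that of the shortest, although its axis label says median. The combination libraries are at the top of both panels, with abemaciclib replicate 3 the nearest of the abemaciclib libraries.

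**Figure D3:**
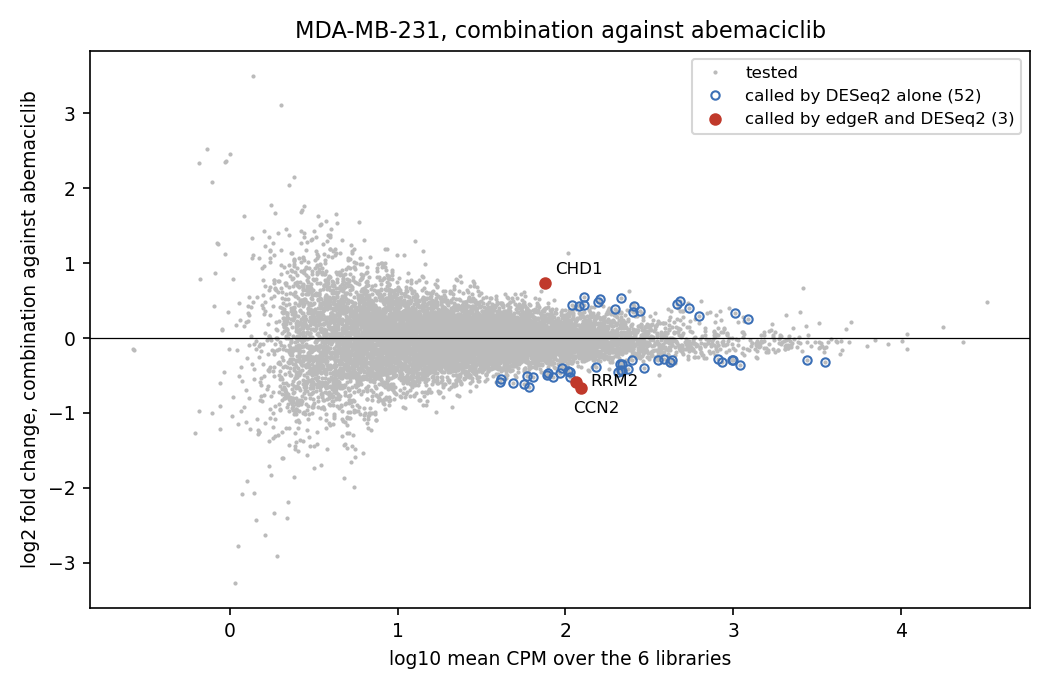
Log2 fold change of the combination against abemaciclib in MDA-MB-231 for each of the 11314 genes tested, against the log10 of the mean CPM over the 6 libraries. The 3 genes called by edgeR and DESeq2 are filled, the 52 called by DESeq2 alone are open circles, and most genes above 100 CPM lie close to 0.

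The genes of the CDK4/6 and Rb pathway gave no call by either tool. CCND1, the cyclin D1 gene, stood at 918.2, 917.2 and 1025 CPM with abemaciclib and at 919.4, 968.2 and 965.8 CPM with the combination. These groups overlapped, and the 95% interval of the fold was 0.89 to 1.12. RB1 had a fold interval of 0.73 to 1.16, CDK4 of 0.82 to 1.08 and CDK6 of 1.02 to 1.49, with edgeR adjusted p-values of 0.874, 0.840 and 0.431. KDM5A, a histone demethylase that binds Rb, had a log2 fold change of 0.28 (adjusted p = 0.541). CDKN1A, the gene of the CDK inhibitor p21, stood at 13.1 to 20.4 CPM with abemaciclib and 11.9 to 15.5 CPM with the combination, with a fold interval of 0.59 to 1.16. Of the 32 tested genes of this pathway list, edgeR and DESeq2 called 0, with 4 at an unadjusted edgeR p below 0.05. Their median log2 fold change was -0.08. DESeq2 gave no adjusted p to RB1 or CDKN1A, so it could not call them.

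The medians of the proliferation lists lay slightly below that of all genes, with 1 call by edgeR. MKI67, the marker of cycling cells, stood at 180.4, 182.1 and 206.5 CPM with abemaciclib and at 181.4, 217.4 and 190.7 CPM with the combination, with a fold interval of 0.89 to 1.21. TK1 and CCNA2 did not overlap between the groups, with log2 fold changes of -0.33 and -0.39 and edgeR adjusted p-values of 0.362 and 0.380. Among 82 genes of E2F targets and DNA replication, RRM2 was the 1 that edgeR called and DESeq2 also called LMNB1 and MYBL2. In this list 60 members had values below 0, and the median log2 fold change was -0.12 beside -0.02 over all genes. Over all 11314 genes tested, 5960 had values below 0. Among 80 mitosis genes, edgeR called 0, with 22 at an unadjusted p below 0.05, and DESeq2 called 6 lower. Values were below 0 for 57 of them and the median was -0.13. In that list 24 genes were lower without overlap and 1 was higher, where the share over all genes was 8.84% lower and 7.03% higher. The E2F list held 12 lower and 2 higher. In contrast to these medians, abemaciclib against DMSO, which shares the abemaciclib libraries, gave medians of -0.79 for the E2F list and -0.85 for the mitosis list. The lists share no gene. Without abemaciclib replicate 3 the medians of the combination against abemaciclib were -0.13 and -0.09.

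Of the oestrogen response genes, edgeR called 0, with 12 at an unadjusted p below 0.05, and DESeq2 called 2 lower, KRT18 and IGFBP4. Of the 125 on the list, 83 were expressed enough to be tested, 34 with values above 0 and 49 below, and the median log2 fold change was -0.08. The groups did not overlap for 7 higher and 11 lower members (21.7% of the 83, where the share over all genes was 15.9%). KRT18, a luminal keratin, stood at 245.8, 270.6 and 221.8 CPM with abemaciclib and at 192, 182.9 and 202.9 CPM with the combination. It was lower without overlap, with a log2 fold change of -0.35 (edgeR adjusted p = 0.142). KRT19 had a fold interval of 0.86 to 1.16. The list of steroid and oestrogen-binding receptors had 14 tested members, 0 calls by either tool, 1 unadjusted edgeR p below 0.05 and a median of -0.01. A member that DESeq2 gave no adjusted p could not be called by it.

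Of the mesenchymal and cytoskeletal genes, edgeR called 0 and DESeq2 called 1, CAV1, the gene of caveolin 1. VIM stood at 2030, 1735 and 1901 CPM with abemaciclib and at 1812, 1862 and 1938 CPM with the combination, and its fold interval was 0.89 to 1.11. CD44 did not overlap between the groups, at 257.4 to 290.7 CPM and 233.6 to 241.6 CPM. Its log2 fold change was -0.20 (edgeR adjusted p = 0.432). ERBB2, at 22.4 to 32.4 CPM in all 6 libraries, had a fold interval of 0.81 to 1.48. CAV1, named after its values were seen, stood at 396.3 to 445 CPM with abemaciclib and 336.8 to 363.6 CPM with the combination, without overlap, and its log2 fold change was -0.28 (edgeR adjusted p = 0.232, DESeq2 adjusted p = 0.0464). The mesenchymal and cytoskeletal list had 41 tested members, of which 11 had an unadjusted edgeR p below 0.05, and a median of -0.03. The groups did not overlap for 3 higher and 9 lower members (29.3%, where the share over all genes was 15.9%). Of the 9 tested markers of MDA-MB-231, 8 had values below 0, 5 had an unadjusted edgeR p below 0.05, and 1 higher and 3 lower did not overlap (44.4%). Of 28 YAP and TEAD targets, CCN2 was the 1 called, and the median was -0.10 with 11 values above 0 and 17 below. With CCN2 included, 7 had an unadjusted edgeR p below 0.05, and 1 higher and 6 lower did not overlap (25%).

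Across all 28 lists, the medians ran from -0.15 for 13 genes of NF-kB, cytokines and chemokines to 0.11 for the 15 genes of the mitochondrial genome, where the quartiles of all genes stood at -0.19 and 0.17. The first of these medians was 0.16 without abemaciclib replicate 1, and the other was 0.0048 without abemaciclib replicate 2. Interferon response, MHC class I presentation and lysosome genes, which stood higher with abemaciclib than with DMSO by medians of 0.77, 0.57 and 0.68, had medians of -0.07, 0.07 and -0.02 when fulvestrant was added. Sterol and fatty acid synthesis genes had a median of -0.13, with 27 of 33 values below 0, where 5960 of all 11314 genes had values below 0. Cytosolic ribosomal protein genes had a median of -0.07 with 64 of 77 values below 0, and offsets for length and GC brought it to -0.01. CCN2 and RRM2 were the only members that edgeR called in any of the 28 lists.

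**Figure D4:**
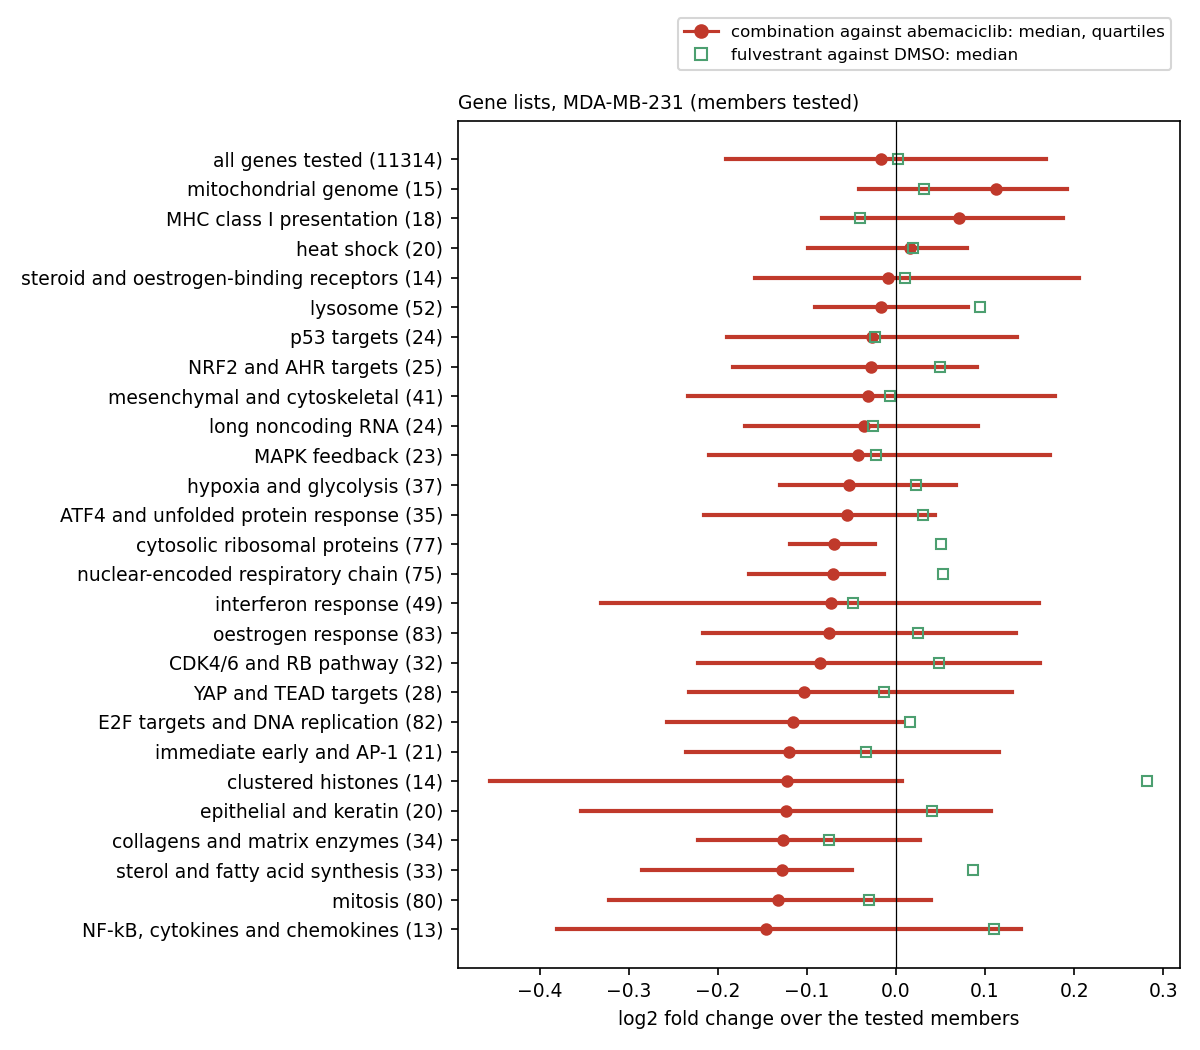
Median log2 fold change (points) and quartiles (bars) of the tested members of the gene lists other than the line markers, and of all genes, for the combination against abemaciclib in MDA-MB-231, with the median for fulvestrant against DMSO as open squares. The numbers in parentheses are members tested, and every median of the combination lies between -0.15 and 0.11.

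Fulvestrant without abemaciclib gave no call by edgeR in this line, and the DESeq2 count for that comparison is not given here. Against DMSO, edgeR called 0 of the 11314 genes (0%), and the smallest adjusted p was 0.215. An unadjusted p below 0.05 was given to 799 genes, against 566 under uniformity. The 2 fulvestrant comparisons share no library. Over the 8072 genes averaging at least 10 CPM, their log2 fold changes had a Pearson correlation of -0.155 and the same sign for 3382 genes (41.9%), a description across genes, which are not independent replicates. Of the 55 genes that DESeq2 called for the combination, 12 had the same sign with fulvestrant alone. The length medians had opposite order there, at 0.04 in the shortest tertile and -0.04 in the longest.

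The fulvestrant effect with abemaciclib minus that without it was tested in the same fit, and 14 genes were called (0.124%), 12 positive and 2 negative. All 14 had opposite signs in the 2 comparisons, which choosing genes by a large difference between these effects favours. Some intervals for fulvestrant against DMSO included 0, such as those of CCN2 (log2 -0.024 to 0.364) and AKAP12 (-0.424 to 0.012). CEP83, which encodes a protein of the centriole's distal appendages, had the largest value among genes of at least 10 CPM. It stood at 5.16, 9.15 and 7.66 CPM with abemaciclib and at 17.8, 17.9 and 18.2 CPM with the combination, while the range was 12.8 to 15.7 CPM with DMSO and 6.07 to 8.89 CPM with fulvestrant. Its interaction was 2.19 on the log2 scale (SE 0.42, edgeR adjusted p = 0.00969), and its difference between combination and abemaciclib was not called (log2 fold change 1.29, adjusted p = 0.0651). Exons of CEP83 overlap those of PLXNC1 on the other strand.

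MT-ATP8, a mitochondrially encoded subunit of ATP synthase whose gene overlaps MT-ATP6, had an interaction of 1.15 (SE 0.22, edgeR adjusted p = 0.00969). It stood at 1594, 1514 and 2917 CPM with abemaciclib and at 2884, 3477 and 3235 CPM with the combination, so abemaciclib replicate 3 lay within the range of the combination. Fulvestrant replicate 1 stood at 1905 CPM, near the 1769 to 1885 CPM of DMSO, and the other fulvestrant libraries at 1017 and 993.5 CPM. The same 2 libraries, abemaciclib replicate 3 and fulvestrant replicate 1, also had the highest value of the longest minus the shortest tertile of transcripts in their groups, at -0.39 and -0.46. CHD1 and CCN2 had interactions of 1.07 and -0.84 (both edgeR adjusted p = 0.00442). The called genes also included SRPK2, TTC3, MAP1B, ANKRD11, SRRM1, ZNFX1, AKAP12 and EIF5B, with interactions from 0.58 to 1.03, and H2AZ1 at -0.56. Of the 12 positive genes, 8 were in the longest tertile of transcripts. RRM2 missed the threshold, at -0.61 (adjusted p = 0.0610).

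**Figure D5:**
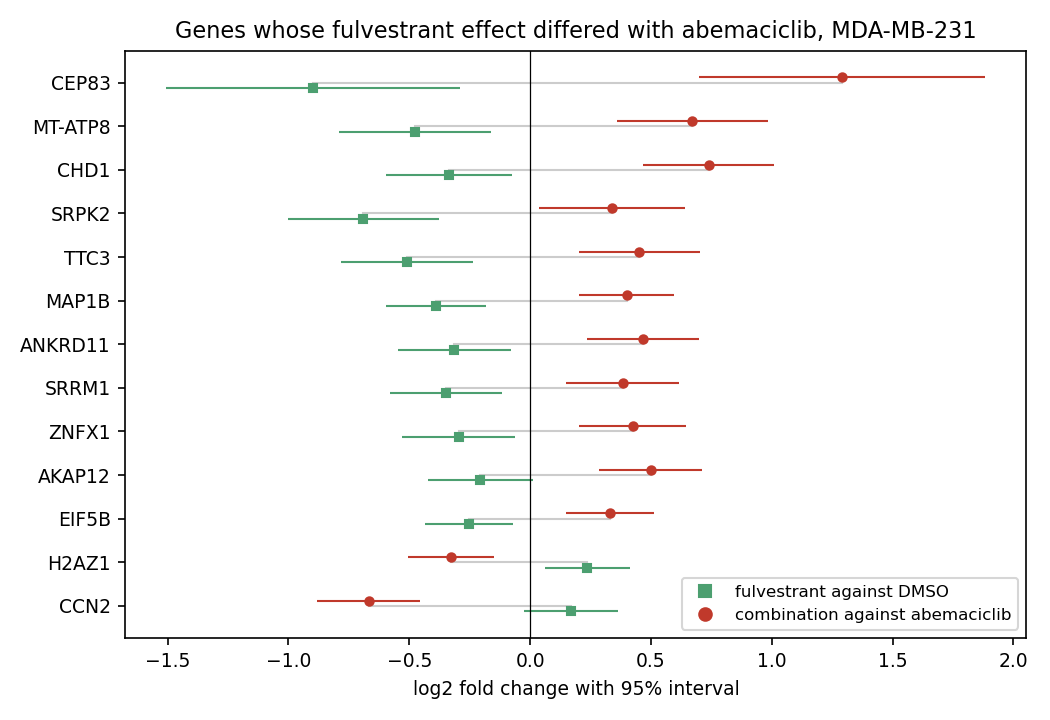
Log2 fold changes with 95% intervals for 13 of the 14 genes whose fulvestrant effect differed with and without abemaciclib in MDA-MB-231, for fulvestrant against DMSO (squares) and the combination against abemaciclib (circles). The 2 estimates of each gene lie on opposite sides of 0, which choosing genes by their difference favours, and some fulvestrant intervals include 0.

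The same addition to abemaciclib in MDA-MB-453 was compared in a fit of all 24 libraries. MDA-MB-231 was grown in RPMI-1640 and MDA-MB-453 in DMEM, so line and medium cannot be told apart. In that line edgeR called 209 of 12750 genes (1.64%), 105 higher and 104 lower. The same fit called 14 for MDA-MB-231. The difference between the lines was called for 133 genes (1.04%), with the difference higher in MDA-MB-453 for 54 and lower for 79. With library totals in place of TMM scaling the split was 76 and 24. Among genes averaging at least 10 CPM in MDA-MB-231, the 2 largest differences were those of CCN2 and FADS3.

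CCN2 had 1, 0 and 1 counts in the MDA-MB-453 libraries with abemaciclib and 8, 5 and 4 with the combination, so it was near absent there. Its difference between lines was 3.54 on the log2 scale (edgeR adjusted p = 0.00649), and it was the 1 gene of the 3 called in MDA-MB-231 that was also called in MDA-MB-453, with the opposite direction. FADS3, a member of the fatty acid desaturase family, had 1, 2 and 2 counts and then 5, 16 and 20 in the epithelial line. In MDA-MB-231 it stood at 46.5 to 50.8 CPM with abemaciclib and 39.7 to 48.3 CPM with the combination, and was not called. RRM2 had 5, 1 and 4 counts with abemaciclib in MDA-MB-453 and 3, 3 and 4 with the combination, so that a further fall could not be resolved at this depth. CHD1 was not called there, at 111 to 142 counts with abemaciclib and 97 to 156 with the combination, and its difference between lines missed the threshold at -0.79 (adjusted p = 0.0725).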

How the data were processed

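Transcripts were measured by 3′ RNA-seq. Per the labels and the study's methods, the authors used BBDuk for trimming, STAR for alignment to hg38 and featureCounts for counting on GENCODE v35. They deposited whole-number counts per gene without normalisation. Strand, multiple alignments, duplicates and molecular identifiers are not stated in the sources used here. Floors cover counting error only, while intervals of fold changes include the spread between libraries.

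Models were fitted with edgeR 4.0.16 in R 4.3.3 (filterByExpr, TMM, quasi-likelihood) on the 12 MDA-MB-231 libraries, and on all 24 for the difference between lines. DESeq2 1.42.0 was the alternative tool. Single values were compared by exact 2-sided permutation tests. The 1 row that named no gene held 0 counts. Other alternatives were DESeq2 size factors, library totals, no filter, no mitochondrial genes, the 2 groups alone, a replicate block, a minimum fold, each library left out and length and GC offsets. The steps were tested on simulated data. Positions, lengths and GC came from GENCODE v44 on GRCh38.

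The comparison, the 28 hand-written lists and the rule for named genes were chosen with earlier results of these data known. The rule took 16 fixed genes, up to 12 called genes in each direction averaging at least 10 CPM without overlap between groups, up to 4 called members of each list, the 2 largest called differences of the interaction and of the lines, and the highest-expressed called genes. A few genes are not reported here. The 6 libraries were not copies: over genes with at least 20 counts, replicate pairs gave a chi-square of 3.22 to 6.05 per degree of freedom.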

Additional observations from a re-analysis of the deposited data

Results flagged for a closer look

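Both tests of a difference between contexts gave called genes by edgeR with Benjamini-Hochberg adjustment over all genes, and those reported here are listed for a closer look. The effect of fulvestrant in MDA-MB-231 differed with and without abemaciclib for 14 genes. On the log2 scale the interactions were 2.19 for CEP83, 1.15 for MT-ATP8, 1.07 for CHD1, 1.03 for SRPK2, 0.96 for TTC3, 0.79 for MAP1B, 0.78 for ANKRD11, 0.73 for SRRM1, 0.72 for ZNFX1, 0.71 for AKAP12 and 0.58 for EIF5B. They were -0.84 for CCN2 and -0.56 for H2AZ1. CHD1 and CCN2 were called in all 11 alternatives, MAP1B in 9, CEP83 and TTC3 in 8, MT-ATP8 in 7, SRPK2, AKAP12 and ANKRD11 in 6, EIF5B, H2AZ1 and ZNFX1 in 5, and SRRM1 in 3. The length and GC offsets were not applied to the interaction. No DMSO or fulvestrant-alone library was left out in these alternatives. The effect of adding fulvestrant to abemaciclib differed between MDA-MB-453 and MDA-MB-231 for 133 genes, with CCN2 at 3.54 and FADS3 at 3.10 among those of at least 10 CPM in MDA-MB-231. In MDA-MB-453 both of these genes had 20 counts or fewer in every library with abemaciclib or the combination.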

How the results depend on the processing

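For the combination against abemaciclib in MDA-MB-231, the count of called genes was 55 with DESeq2, 5 with DESeq2 size factors (3 higher, 2 lower), 49 without the filter on low counts, 7 without the mitochondrially encoded genes, 30 with the 2 groups fitted alone and 0 at a minimum change of 1.2-fold (424 at an unadjusted p below 0.05). Of the alternatives chosen after seeing the data, length and GC offsets gave 10, and DESeq2 without its filter on mean counts gave 15. With each of the 6 libraries compared removed in turn, the count ran from 0 to 96. It was lowest without abemaciclib replicate 1 (789 at an unadjusted p below 0.05) and highest without abemaciclib replicate 3. CCN2, RRM2 and CHD1 kept their directions in all 16 alternatives and were called in 14, 12 and 11 of them.

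The count of interaction genes was 65 with DESeq2, 132 without the filter and 6 with the replicate block. It was 2 to 160 without 1 of the 6 MDA-MB-231 abemaciclib and combination libraries. No DMSO or fulvestrant-alone library was left out. The difference between lines gave 229, 230 and 88 genes under the same 3 alternatives, and 37 to 214 without 1 of the same 6 libraries. No MDA-MB-453 library was left out, so the dependence on single libraries of that line was not tested. The mitochondrial share differed by 0.356 percentage points without the ribosomal RNA genes. No shared deviation by replicate number was seen. The deviations of same-numbered combination and abemaciclib libraries correlated at 0.054, -0.006 and -0.032 over genes of at least 10 CPM. Those of differently numbered libraries correlated at -0.088 to 0.085. These values cannot show whether the libraries were set up in pairs. With the replicate block 3 genes were called for the combination against abemaciclib, the same 3, and the mitochondrial share gave an exact paired permutation p of 0.25, the smallest 3 pairs allow. Of the list medians under 16 alternatives, 28 values moved by more than the spread between libraries, 7 of them for the clustered histones, 32 values of named genes without a call changed sign, and no result past a threshold did. Totals of 3291153 to 4158762 counts a library limit what genes below 10 CPM can show.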
